A study of Homo sapiens with 6 samples.

Results

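The BCL2 family decides whether the outer mitochondrial membrane of a cell is opened during apoptosis. Its genes are described here as the symbols BCL2L11, PMAIP1, BBC3, BID, BAD, BAX, BAK1, BCL2, BCL2L1 and MCL1, which were chosen by name, and all 10 were found among the 18417 genes that the arrays read under a single symbol. Gene expression was measured in U373MG, an established human glioblastoma cell line, with 6 arrays of the Human Gene 1.0 ST design, which reads a transcript with probes spread along its length. The cells were exposed for 24 hours to ET-770, an ecteinascidin from a marine tunicate, at 4.83 nM, to ET-770-DR, the pyridinecarbonyl derivative of ET-770, at 1.70 nM, or to renieramycin M (RM), a quinone alkaloid from a marine sponge, at 3.10 nM. Each dose is labelled as the IC50 of its compound, which the study determined after a longer exposure than the 24 hours used for the arrays. Each compound had 1 array, and 1 array of cells exposed to an equivalent amount of the vehicle, dimethyl sulfoxide (DMSO), was run in the same experiment, so that there were 3 experiments of 2 arrays. No transgene, deletion or other agent is named for any group.

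Members of the family act in 3 roles. The prosurvival proteins BCL2, BCL-XL (from BCL2L1) and MCL1 hold the effectors BAX and BAK (from BAK1) inactive, and the effectors form pores through which cytochrome c leaves the mitochondrion. The BH3-only proteins BIM (from BCL2L11), NOXA (from PMAIP1), PUMA (from BBC3), BID and BAD carry a short helix, the BH3 domain, that fits a groove of the prosurvival proteins, and some of them also activate the effectors directly. BIM, PUMA and the cleaved form of BID bind broadly, whereas NOXA binds chiefly MCL1, and BAD binds BCL2 and BCL-XL. Many of these genes are controlled at transcription: PUMA, NOXA and BAX are known targets of p53, BIM of FOXO factors, and NOXA also of ATF factors.

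The promoters of the 3 members with the largest mean changes are shown because all 3 genes rose. Each is the stretch of 250 bases before the RefSeq transcription start on GRCh38.p14, read from 5′ to 3′ on the strand of the gene, and capitals mark every match, on either strand, to the GC box GGGCGG, the CCAAT box named by its letters, the TATA box TATAAA, the core TGACGT of sites for ATF and CREB factors, the E-box CACGTG that MYC uses, or the FOXO site GTAAACA. No motif of the 6 contains another.
BCL2L11, chr2:111120664-111120913, plus strand: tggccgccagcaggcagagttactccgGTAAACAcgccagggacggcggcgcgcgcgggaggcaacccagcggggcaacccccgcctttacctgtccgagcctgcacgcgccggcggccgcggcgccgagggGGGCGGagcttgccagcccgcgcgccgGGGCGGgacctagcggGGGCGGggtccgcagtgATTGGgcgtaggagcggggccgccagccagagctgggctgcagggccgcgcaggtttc
PMAIP1, chr18:59899746-59899995, plus strand: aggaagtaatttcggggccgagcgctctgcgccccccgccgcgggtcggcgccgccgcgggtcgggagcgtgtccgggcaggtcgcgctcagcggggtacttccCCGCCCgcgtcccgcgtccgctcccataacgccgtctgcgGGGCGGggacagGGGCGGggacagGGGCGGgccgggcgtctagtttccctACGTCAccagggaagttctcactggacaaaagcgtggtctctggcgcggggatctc
BAK1, chr6:33580277-33580526, minus strand: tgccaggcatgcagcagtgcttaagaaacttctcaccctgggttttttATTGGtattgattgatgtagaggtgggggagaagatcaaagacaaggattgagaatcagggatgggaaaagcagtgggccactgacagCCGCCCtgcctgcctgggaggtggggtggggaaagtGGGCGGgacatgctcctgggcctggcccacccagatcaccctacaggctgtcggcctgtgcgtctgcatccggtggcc

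Of the 10 members, 9 had an entry in the promoter table, with 15 windows in all, since some genes have several starts. MCL1 had no entry and was not searched. GTAAACA stood in the promoter of BCL2L11 and of no other member searched, and in 2.98% of the 34788 promoter windows of all genes. TGACGT stood in 3 of the 15 windows, of PMAIP1 and BAD (7.09% of all windows), and in PMAIP1 it lies on the opposite strand, printed as ACGTCA. The GC box stood in 10 of the 15 windows (42.6% of all windows), with 3 matches in BCL2L11, 4 in PMAIP1 and 2 in BAK1. BID, with several windows, had up to 4 in a window, BAX had 1 and BAD 1 in each window. CACGTG stood in 4 of the 15 windows, of BBC3, BAX and BID (6.31% of all windows). CCAAT stood in 6 windows (32% of all windows) and TATAAA in 1 (10.8%). A match is a description of these letters alone and does not show that a factor binds.

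In the response that the 3 compounds shared, 4 of the 10 members rose, 0 fell and 6 did not pass the test (limma, blocked by experiment, 3 pairs of arrays, adjusted p under 0.05). Of all 18417 genes 13.1% rose and 11.2% fell. The members were chosen with earlier results of these data known, so the comparison with all genes is a description and not a test of the family. An unadjusted p under 0.05 was reached by 6 members. The share of all genes at that threshold was not counted, so this number has no background to be set against. After adjustment 4 of the 10 members and 24.3% of all genes passed in either direction. Higher than DMSO in all 3 experiments were 7 members (29.6% of all genes), 1 was lower in all 3 (20.6% of all genes) and 2 were mixed. The members that rose were BCL2L11, BAK1, PMAIP1 and MCL1, which span all 3 roles. Without the block, which leaves the differences between experiments in the error, only BCL2L11 passed (adjusted p = 0.022). Of all genes, 26 rose and 369 fell without it. The compounds serve as replicates of each other in the blocked fit. The block takes out differences in level between experiments, while differences in the change between compounds and doses count as spread. The standard error is moderated with the variance of all genes, so it does not measure the spread of a gene's own 3 changes alone. With 1 array per arm there is no test of a single compound. The median change of the members was 0.35 on the log2 scale under ET-770, 0.21 under ET-770-DR and 0.25 under RM, while over all genes the median was 0.02, -0.03 and 0.12. In RNA of whole cultures, fewer cells of a kind and less RNA per cell cannot be told apart.

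**Figure D1:**
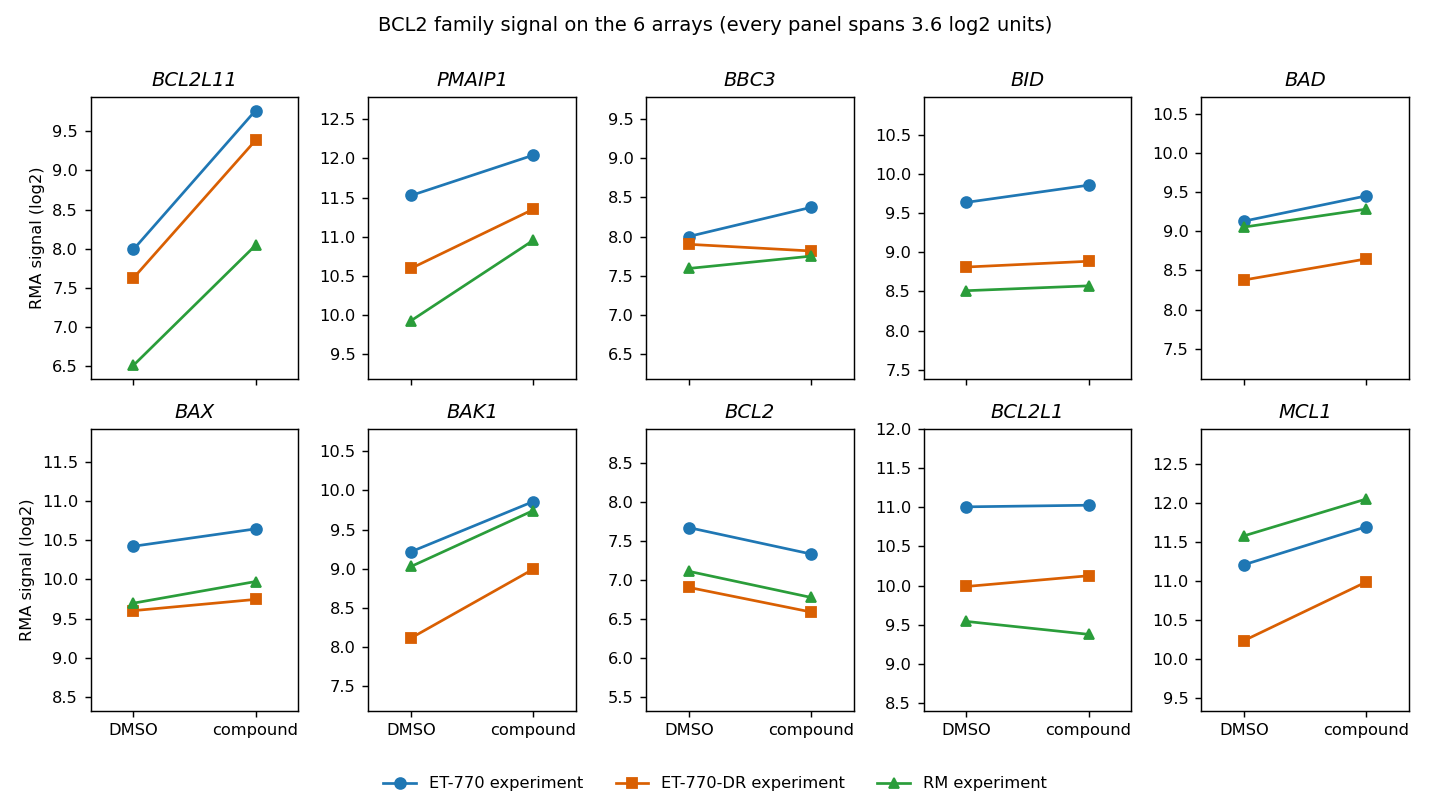
RMA signal (log2) of each BCL2 family gene in DMSO-treated and compound-treated cells; points are single arrays, joined by a line within an experiment. The lines of BCL2L11 are the steepest, those of BCL2 slope down in all 3 experiments, and those of BCL2L1 are nearly flat.

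Among the BH3-only genes, BCL2L11, which encodes BIM, changed most. Its log2 signal went from 7.99 in DMSO to 9.77 under ET-770, from 7.62 to 9.39 under ET-770-DR, and from 6.51 to 8.04 under RM. All compound arrays lay above all DMSO arrays, by 0.05 log2 units at the nearest, and BCL2L11 was the only member whose groups did not overlap (3.62% of all genes had every compound array above every DMSO array and 5.34% had every one below). It was at 3.43, 3.39 and 2.90 times its DMSO signal with the respective compounds, an order kept wherever 3 values are given. Over 3-fold were 0.233% of all genes under ET-770, 0.51% under ET-770-DR and 0.0434% under RM, and BCL2L11 was the only member past that threshold under ET-770 and under ET-770-DR, while 0 members passed it under RM. More than 3-fold below DMSO were 0 members, against 2.15%, 2.12% and 1.36% of all genes under ET-770, ET-770-DR and RM, and below 0.5-fold likewise 0, against 4.68%, 4.94% and 4.28%. Ranked by the change, BCL2L11 was number 21 of 18417 genes under ET-770, 44 under ET-770-DR and 11 under RM. Its shared log2 change, the mean over the 3 experiments, was 1.69 (moderated standard error, SE, 0.12, 95% confidence interval 1.41 to 1.97, adjusted p = 2.2e-05), number 9 of all genes. Set against the mean of the 3 DMSO arrays in place of its own, its log2 change was 2.39 under ET-770, 2.01 under ET-770-DR and 0.67 under RM, because the vehicle-treated cells of the RM experiment had the lowest signal.

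PMAIP1 encodes NOXA, the partner of MCL1. Its log2 signal went from 11.53 in DMSO to 12.04 under ET-770, from 10.59 to 11.35 under ET-770-DR, and from 9.93 to 10.95 under RM. All 3 pairs moved upward, but the groups overlapped, since the DMSO array of the ET-770 experiment exceeded the compound arrays of both other experiments. PMAIP1 was at 1.43, 1.69 and 2.04 times its DMSO signal with the respective compounds, and its rank among all genes was 1911, 1417 and 103. Beyond 2-fold were 2 members under RM, BCL2L11 and PMAIP1 (0.668% of all genes), and 1 member, BCL2L11, under ET-770 (2.01% of all genes) and under ET-770-DR (3.84%). PMAIP1 rose by a shared log2 change of 0.77 (SE 0.14, 95% confidence interval 0.46 to 1.07, adjusted p = 0.0030). Without the block its adjusted p was 0.85. The doses of the compounds differed and each fold rests on 1 pair of arrays, so the order of the folds among the compounds could not be tested.

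BBC3, BID and BAD, the other BH3-only members, did not pass the test. BBC3, which encodes PUMA, had log2 signals of 8.0 and 8.37, 7.90 and 7.82, and 7.59 and 7.75 for DMSO and compound in turn, in the same order of experiments. It was thus higher under ET-770 and RM and lower under ET-770-DR, and its shared log2 change was 0.15 (95% confidence interval -0.15 to 0.45, adjusted p = 0.54). BID, which links death receptors to mitochondria once a caspase has cut it, was at 1.16, 1.05 and 1.04 times DMSO (shared log2 change 0.12, 95% confidence interval -0.15 to 0.39, adjusted p = 0.60). BAD, whose protein is held inactive by phosphorylation, was at 1.25, 1.20 and 1.17 times DMSO (shared log2 change 0.27, 95% confidence interval 0.0048 to 0.54, adjusted p = 0.14). BAD was higher than DMSO in all 3 experiments and its 3 changes spanned 0.23 to 0.32 on the log2 scale. Its unadjusted p was 0.047. The upper ends of these intervals, 1.36-fold for BBC3, 1.31-fold for BID and 1.46-fold for BAD, lie below the lower end for BCL2L11, 2.66-fold.

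Of the effectors, BAK1 rose and BAX did not pass the test. The log2 signal of BAK1 went from 9.22 in DMSO to 9.86 under ET-770, from 8.11 to 8.99 under ET-770-DR, and from 9.03 to 9.74 under RM. The array of ET-770-DR lay below the DMSO arrays of both other experiments, so that the groups overlapped, although all 3 pairs moved upward. BAK1 was at 1.56, 1.84 and 1.64 times DMSO and rose by a shared log2 change of 0.75 (SE 0.12, 95% confidence interval 0.47 to 1.02, adjusted p = 0.0020). Without the block the adjusted p was 0.86. BAX had log2 signals of 10.42 and 10.65, 9.60 and 9.74, and 9.70 and 9.97, and was at 1.17, 1.1 and 1.21 times DMSO. Its shared log2 change was 0.21 (95% confidence interval -0.06 to 0.48, adjusted p = 0.26). In each experiment the change of BAK1 exceeded that of BAX, by 0.42, 0.74 and 0.44 log2 units under ET-770, ET-770-DR and RM.

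The prosurvival members did not move together. MCL1, a protein of short half-life, went from a log2 signal of 11.21 in DMSO to 11.69 under ET-770, from 10.24 to 10.99 under ET-770-DR, and from 11.58 to 12.05 under RM. All 3 pairs moved upward, to 1.40, 1.68 and 1.39 times DMSO, while the groups overlapped widely. Its shared log2 change was 0.57 (SE 0.13, 95% confidence interval 0.28 to 0.85, adjusted p = 0.0092). Without the ET-770 experiment its adjusted p was 0.059, with a shared log2 change of 0.61, and without the block it was 1.0.

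BCL2, the founding member, had log2 signals of 7.67 and 7.34, 6.91 and 6.59, and 7.11 and 6.78, and was the only member lower than DMSO in all 3 experiments. It was at 0.792, 0.804 and 0.794 times DMSO, and the standard deviation of its 3 log2 changes, 0.01, was the smallest among the members. The shared log2 change of -0.33 (95% confidence interval -0.60 to -0.06) had an unadjusted p of 0.021 and did not pass after adjustment (adjusted p = 0.077). BCL2L1, which encodes BCL-XL, had log2 signals of 11.01 and 11.03, 9.99 and 10.13, and 9.54 and 9.38. It was at 1.01, 1.1 and 0.892 times DMSO, and its shared log2 change was -0.0024 (95% confidence interval -0.28 to 0.28, adjusted p = 0.99), an interval of 0.821-fold to 1.21-fold.

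**Figure D2:**
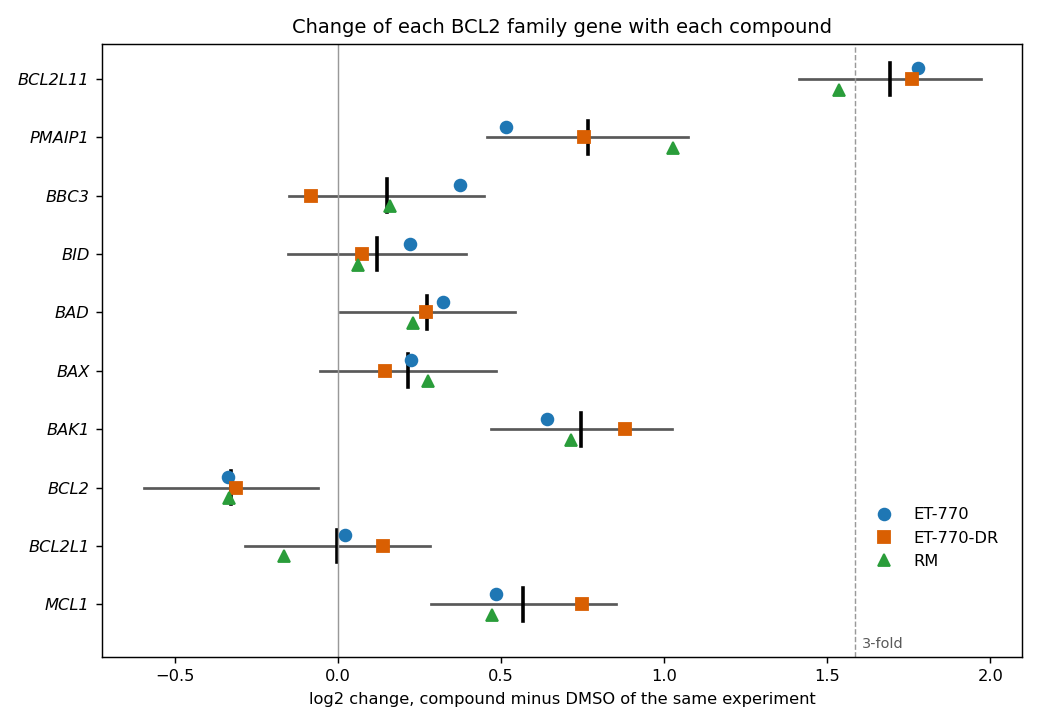
Log2 change of each BCL2 family gene relative to its paired DMSO array; each symbol is 1 compound on 1 pair of arrays, the black bar is the mean over the 3 experiments and the grey line its 95% confidence interval from limma. The interval of BCL2L11 (1.41 to 1.97) lies to the right of the intervals of the other members, and BCL2 alone has all 3 symbols left of 0.

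The changes of the members within an experiment were also set against each other, as differences of changes and not of levels. BCL2L11 exceeded MCL1 by 1.29, 1.01 and 1.06 log2 units under ET-770, ET-770-DR and RM. It exceeded BCL2L1 by 1.76, 1.62 and 1.70, and BCL2 by 2.11, 2.07 and 1.87. With the paired DMSO arrays as controls, the signal of BIM therefore increased relative to each prosurvival gene in every experiment. With the mean DMSO array as the control, it did so under ET-770 and ET-770-DR. Under RM, the change of BCL2L11 was then 0.67, above those of BCL2 (-0.45) and BCL2L1 (-0.80) but below that of MCL1 (1.04). NOXA and its partner MCL1 changed by nearly equal amounts under ET-770 and ET-770-DR, where the difference of PMAIP1 and MCL1 was 0.03 and 0.01, whereas under RM PMAIP1 exceeded MCL1 by 0.56. This pattern of PMAIP1 and MCL1 also depended on the control. Against the mean DMSO array PMAIP1 changed by 1.36, 0.67 and 0.27 under ET-770, ET-770-DR and RM, and MCL1 by 0.69, -0.02 and 1.04. The differences within an experiment rest on 1 pair of arrays each, and none of these comparisons was tested.

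Levels of the members varied between vehicle-treated cells of the 3 experiments. The DMSO array of the ET-770 experiment had the highest signal for 9 of the 10 members, MCL1 being the exception. The median of all 18417 genes was also highest there, at 7.97, against 7.28 on the DMSO array of the ET-770-DR experiment and 7.40 on that of the RM experiment. BCL2L11 spanned 6.51 to 7.99 on the DMSO arrays (range 1.48), PMAIP1 9.93 to 11.53 (range 1.60), BCL2L1 9.54 to 11.01 (range 1.47) and MCL1 10.24 to 11.58 (range 1.34). After quantile normalization across the 6 arrays these ranges were 1.17, 1.15, 1.01 and 1.11, while the range of BCL2 went from 0.76 to 0.14 and that of BAX from 0.82 to 0.26. For BCL2L11 the range between vehicle arrays was smaller than each of its 3 changes on the deposited scale (smallest change 1.53) and after quantile normalization (smallest change 1.44). For BCL2 that was so only after quantile normalization, where its changes were -0.26, -0.20 and -0.36.

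Lists of genes that act with the family, also chosen with earlier results of these data known, were counted in the same fit. Of 89 genes measured in 8 lists, 26 rose, 12 fell and 51 did not pass. Of all genes 13.1% rose and 11.2% fell, so that the number of list genes that fell was near this background. Without the ET-770 experiment 9 list genes rose, beside 1200 of all 18417 genes. Without that of ET-770-DR 15 rose, beside 1581 of all genes. Without the block 0 rose and 4 fell, beside 26 and 369 of all genes. Among the other BH3-only genes, 0 of 5 rose and 2 fell. BNIP3L and BNIP3, which work in the removal of mitochondria by autophagy, fell by 0.56 (SE 0.12, adjusted p = 0.0079) and 0.55 (SE 0.13, adjusted p = 0.010) on the log2 scale. The other 3 did not pass, and among them the change of HRK was 0.16 (adjusted p = 0.47). Neither of the other prosurvival genes measured passed: BCL2L10 changed by 0.31 (adjusted p = 0.17) and BCL2A1 by -0.29 (adjusted p = 0.21). Of 5 further genes with BCL2-like domains 1 rose, BCL2L12, which was at 1.42, 1.38 and 1.42 times DMSO (shared log2 change 0.49, SE 0.12, adjusted p = 0.014). BCL2L13 changed by -0.16 (adjusted p = 0.54) and BOK, an effector-like protein, by -0.09 (adjusted p = 0.75).

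Of 14 genes of the mitochondrial death pathway, which acts once the membrane is open, 2 rose, 1 fell and 11 did not pass, shares near the 13.1% of all genes that rose and 11.2% that fell. CYCS, which encodes cytochrome c, was at 1.32, 1.97 and 1.44 times DMSO (shared log2 change 0.63, SE 0.14, adjusted p = 0.010). HTRA2, a protease of the intermembrane space, was at 1.34, 1.60 and 1.26 times DMSO (shared log2 change 0.48, SE 0.13, adjusted p = 0.023). OPA1, which shapes the inner membrane and holds the cristae closed, fell by 0.65 (SE 0.12, adjusted p = 0.0036). The median change of this list was 0.11, against 0.03 over all genes.

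Of 16 genes that bind members of the family or control the turnover of their proteins, 3 rose and 4 fell, beside 13.1% and 11.2% of all genes. TRIM2, a ubiquitin ligase that marks BIM for degradation, was at 0.287, 0.212 and 0.205 times its DMSO signal with the respective compounds and fell by 2.11 log2 units (SE 0.14, adjusted p = 1.2e-05). BTRC, the substrate receptor of another ubiquitin ligase that acts on phosphorylated BIM, was at 0.222, 0.224 and 0.446 times DMSO and fell by 1.83 (SE 0.19, adjusted p = 0.00017). USP9X, the deubiquitinase that stabilises MCL1, fell by 0.70 (SE 0.14, adjusted p = 0.0045). HUWE1, a ligase that degrades MCL1, fell by 0.60 log2 units (adjusted p = 0.013). Thus USP9X and HUWE1, whose products act on the stability of MCL1 in opposite ways, were both lower. HUWE1 was named after its values were seen. GSK3B, a gene of the next list that also promotes the degradation of MCL1, fell by 1.86, and the stability of MCL1 was not measured. The median of the 16 genes was -0.08.

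Of 15 kinases and phosphatases that act on members of the family, 3 rose and 3 fell, beside the 13.1% of all genes that rose and 11.2% that fell, a small difference for so few genes. PPP3CA, a catalytic subunit of calcineurin, which dephosphorylates BAD, was at 0.197, 0.176 and 0.339 times DMSO and fell by 2.14 (SE 0.18, adjusted p = 4.5e-05). GSK3B, which phosphorylates MCL1 and so promotes its degradation, fell by 1.86 (SE 0.14, adjusted p = 2.5e-05). PIM1, a kinase that phosphorylates BAD, was at 1.91, 1.76 and 1.70 times DMSO and rose by 0.84 (SE 0.12, adjusted p = 0.00091).

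Of 21 transcription factors known to act on these genes, 11 rose and 2 fell, beside 13.1% and 11.2% of all genes, and the median change was 0.41. By compound the list median was 0.47 under ET-770, 0.62 under ET-770-DR and only 0.20 under RM. Over all genes it was 0.02, -0.03 and 0.12. ATF3, a stress factor that acts on PMAIP1, was at 2.69, 3.24 and 1.65 times its DMSO signal with the respective compounds (shared log2 change 1.28, SE 0.18, adjusted p = 0.00077). DDIT3, which encodes CHOP, an activator of BCL2L11 under endoplasmic reticulum stress, was at 3.09, 2.19 and 1.85 times DMSO (shared log2 change 1.22, SE 0.16, adjusted p = 0.00047). MYC was at 2.94, 2.42 and 0.925 times DMSO (shared log2 change 0.91, SE 0.27, adjusted p = 0.034). It was thus lower than DMSO under RM, and the standard deviation of its 3 log2 changes was 0.89. Of the 3 FOXO genes in the list, FOXO4 rose by 0.45 (adjusted p = 0.038), while FOXO1 changed by -0.15 (adjusted p = 0.56) and FOXO3 by 0.27 (adjusted p = 0.26).

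Of 11 other targets of p53, 6 rose, 0 fell and 5 did not pass, beside 13.1% and 11.2% of all genes, with a median change of 0.51. Without the block 0 genes of these lists rose, and of all 18417 genes only 26 did. AEN, a nuclease of apoptosis, was at 2.68, 2.81 and 1.28 times DMSO (shared log2 change 1.09, SE 0.21, adjusted p = 0.0041). CDKN1A, which encodes the cell cycle inhibitor p21, was at 2.06, 2.41 and 1.85 times DMSO (shared log2 change 1.07, SE 0.13, adjusted p = 0.00036). TP53I3, an oxidoreductase, was at 2.07, 2.09 and 1.95 times DMSO (shared log2 change 1.02, SE 0.12, adjusted p = 0.00029). Of the p53 targets among the members, PMAIP1 rose, whereas BBC3 and BAX did not pass. None of these lists was tested as a set.

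**Figure D3:**
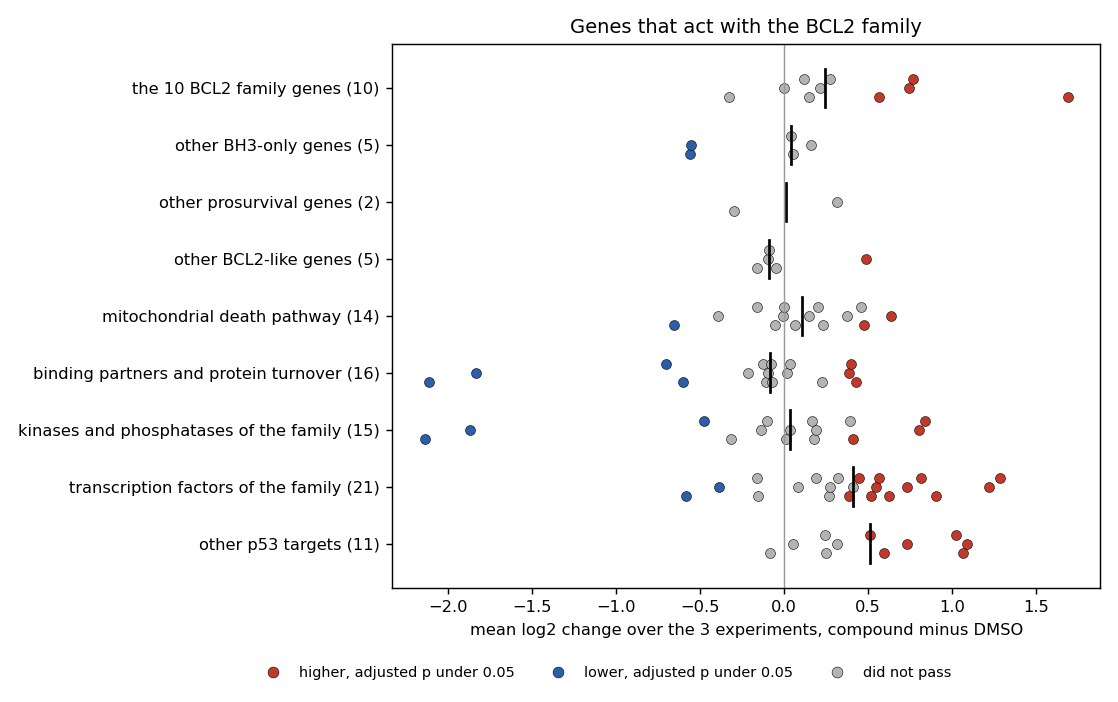
Mean log2 change over the 3 experiments of the 10 BCL2 family genes and of 8 lists of genes that act with them; each point is a gene, the black bar is the median of a list and the number of genes measured stands in brackets. Points of the transcription factors and the other p53 targets lie mostly to the right of 0 (medians 0.41 and 0.51), while the lowest points, near -2, belong to TRIM2, BTRC, PPP3CA and GSK3B.

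The genes whose changes over the 3 experiments lay nearest to those of BCL2L11, by Euclidean distance of the 3 log2 changes, were HOXC5 (distance 0.20), PNP (0.21), LRRTM2 (0.27), ZNF441 (0.28) and TSPYL2 (0.32). HOXC5 is a homeobox factor, PNP an enzyme of purine salvage, LRRTM2 a synaptic adhesion protein and ZNF441 a zinc finger protein. Nearest to PMAIP1 were MAP1S (0.12), RHBDD2 (0.15), CCDC142 (0.15), SLC41A1 (0.15) and CIRBP-AS1 (0.16). MAP1S, a microtubule-associated protein, was at 1.53, 1.61 and 2.04 times DMSO, and SLC41A1, a magnesium transporter, at 1.53, 1.73 and 1.89 times DMSO. Likeness over 3 experiments is a description and was not tested.

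**Figure D4:**
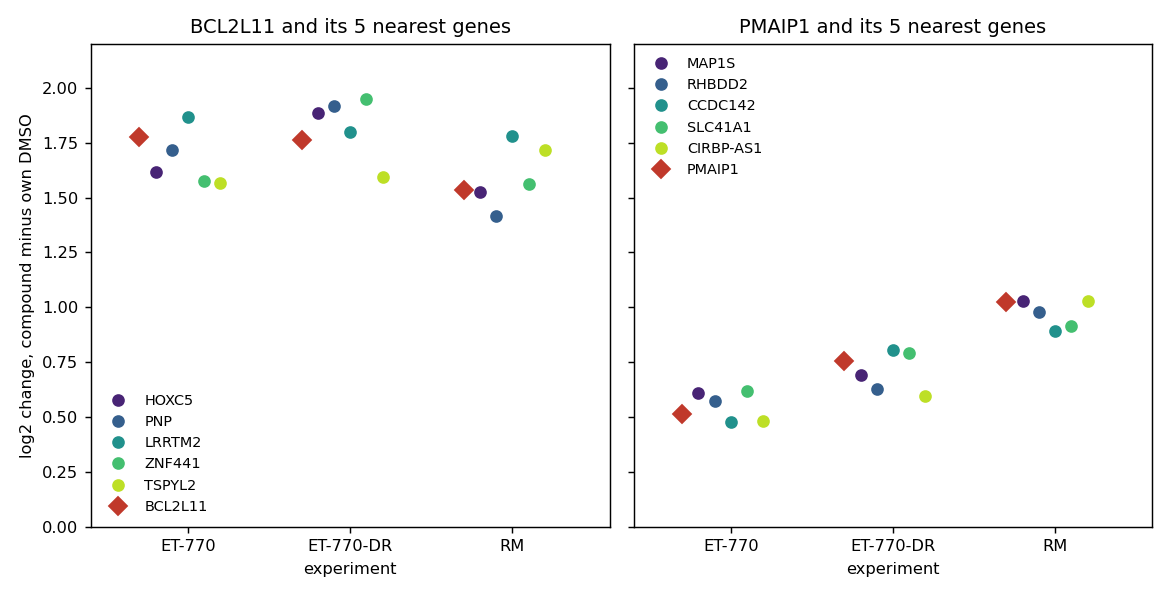
Log2 change relative to the paired DMSO array of BCL2L11 and PMAIP1 (diamonds) and the 5 genes nearest to each (circles); each symbol is 1 pair of arrays, set apart sideways for sight. The genes of the left panel lie between 1.42 and 1.95 in all 3 experiments, and those of the right panel reach their highest values, 0.89 to 1.03, under RM.

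Markers of glioblastoma and of other cells were read on the same arrays. With DMSO the log2 signal of VIM was 12.91 to 13.56, of CD44 12.87 to 13.40, of SOX2 11.48 to 12.43, of EGFR 9.11 to 10.44, of S100B 8.31 to 10.13, of NES 8.61 to 10.54, of GFAP, the defining filament of astrocytes, 6.96 to 7.72, and of CHI3L1 6.26 to 7.12. Levels of different probes cannot be set against each other and the files hold no detection calls, so these signals do not settle which markers the cells expressed. Markers of blood cells, epithelium, endothelium and neurons (PTPRC, AIF1, EPCAM, CDH1, PECAM1 and RBFOX3) lay between 3.41 and 6.48. Of these 6, 0 passed the test, beside 24.3% of all genes, with changes from -0.09 to 0.16. Of the 8 glioma markers 4 fell (EGFR, S100B, SOX2 and CD44) and 0 rose, beside 11.2% and 13.1% of all genes. The part of these markers in the changes of the family was not tested.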

How the data were processed

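The authors scanned the 6 arrays and computed RMA signals in Affymetrix Expression Console, and the deposited values are on a log2 scale. Versions and whether the experiments were normalized together are not given in the sources used here. Of 33297 probes, the 19460 with 1 symbol in the platform annotation were used, 1754 with several and 12083 with none were not, and probes were averaged per gene (18417 genes). Each of the 10 members is read by 1 probe. The GRCh38.p14 gene table, used for names, matched 18388 of them by Entrez ID.

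Each compound array was compared with the DMSO array that the labels assign to it, with the study's threshold of 3-fold in either direction. The shared response was fitted across all genes with limma 3.58.1 in R 4.3.3 (treatment, with experiment as a block; eBayes without trend; Benjamini-Hochberg). Standard errors are moderated. The fit was also run on simulated data with independent noise and effects equal in all 3 experiments. That run does not cover differences between compounds. The number of arrays limits the precision, and nothing says whether cultures were pooled. Alternatives were an unpaired fit, quantile normalization, median centring, a trended and robust fit, a filter on dim genes, the brightest probe, the mean DMSO array, a 2-fold threshold and leaving out each experiment. Named are all members, the 3 largest changes of each list, the 5 genes nearest to BCL2L11 and to PMAIP1, and the markers; HUWE1, FOXO1, FOXO3 and FOXO4 were added after their values were seen. Promoter sequences came from RefSeq (GRCh38.p14). Members and lists were chosen with earlier results of these data known. Python 3.11.15 with numpy 2.4.6, pandas 2.3.3 and matplotlib 3.10.9 served the other steps. Some genes of the lists are not analysed here.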

Additional observations from a re-analysis of the deposited data

Results flagged for a closer look

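Some genes moved in opposite directions from their own DMSO arrays with different compounds. Each value rests on 1 pair of arrays, the doses differed, and the difference was not tested. BBC3 had log2 changes of 0.37 (ET-770) and -0.085 (ET-770-DR). BCL2L1 had 0.14 with ET-770-DR and -0.17 with RM. HRK had 0.31 with RM and -0.026 with ET-770-DR. BCL2A1 had 0.070 with ET-770-DR and -0.60 with RM. BCL2L13 had 0.063 with ET-770-DR and -0.53 with RM. BOK had 0.19 with RM and -0.34 with ET-770-DR. MYC had 1.56 with ET-770 and -0.11 with RM, which is the widest gap among these genes.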

How the results depend on the processing

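BCL2L11 stayed past the threshold under all 9 alternatives, with mean log2 changes of 1.63 to 1.77 and adjusted p-values from limma of 3.5e-13 to 0.022. Without the replicate block the number of members that rose was 1 in place of 4, since PMAIP1, BAK1 and MCL1 then had adjusted p-values of 0.85, 0.86 and 1.0 at the same changes of 0.77, 0.75 and 0.57, and of the list genes 0 rose and 4 fell in place of 26 and 12. Of all 18417 genes, 26 rose and 369 fell without the block, in place of 2406 and 2065. Leaving out each experiment in turn gave 3 to 4 members that rose and 0 that fell, where MCL1 (0.61, adjusted p = 0.059) was lost without the ET-770 experiment. Leaving out an experiment gave 9 to 33 list genes that rose and 9 to 12 that fell, the lowest without the ET-770 experiment and 15 that rose without that of ET-770-DR. Of all genes, 1200 to 3506 then rose and 1505 to 2635 fell, also lowest without the ET-770 experiment. The change of BCL2L1, -0.0024, was 0.033 with each array centred on its median, and -0.072 to 0.079 when an experiment was left out (the highest without that of RM), never past the threshold. At a 2-fold threshold 2 members were past it with RM. Against the mean DMSO array the sign turned for MCL1 (-0.02), BAX (-0.16), BID (-0.10), BAD (-0.21) and BCL2L1 (-0.05) with ET-770-DR, for BBC3 (-0.08) and BID (-0.42) with RM, and for BCL2 (0.10) with ET-770. The brightest probe gave the same values, as each member has 1 probe. BCL2 could not be fitted under the filter on dim genes.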
